A study of Mus musculus with 2 samples.

Results

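The 8 lymphocyte homing genes Ccr7, Cxcr5, Cxcr4, Cxcr3, S1pr1, Itgb1, Itgb7 and Cd44 were followed across the cell classes of mouse spleen. They were chosen by symbol, and all 8 were found in both deposited matrices, among 30457 genes listed in at least 1 of them. The spleen cells came from 3 female C57BL/6J mice, 10 weeks old when Lewis lung carcinoma cells were injected under the skin. All mice received an antibody against CD4, 200 μg per dose on days 5 and 9, and spleens were taken on day 12 and pooled. The cells were freed of red cells, frozen, thawed and loaded (2000 cells) on 1 BD Rhapsody cartridge, whose beads were divided between TAS-Seq, which adds a tail to the cDNA with a terminator nucleotide to stop the reaction, and the manufacturer's whole transcriptome kit (BD WTA). Each method gave 1 library of the same pooled cells, so both groups share mice, tumour and antibody, and neither an untreated mouse nor a replicate library was present.

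Lymphocytes enter and leave lymphoid tissue by reading chemoattractants with G protein-coupled receptors and by holding on to vessel walls and matrix with integrins and CD44. In the spleen, the CCR7 ligands CCL19 and CCL21 mark the T-cell zone and the CXCR5 ligand CXCL13 marks the B-cell follicle, while S1PR1 reads the sphingosine 1-phosphate of blood and lets cells leave. CXCR4 reads CXCL12, and CXCR3 reads CXCL9 and CXCL10, which are made in inflamed tissue.

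After filtering, 732 TAS-Seq and 708 BD WTA cells were kept, with 38583235 and 31481527 reads and medians of 46557 and 38426 reads per cell. A TAS-Seq cell had a median of 3037 genes and a BD WTA cell 1678. The libraries shared 0 cell barcodes. Values are reads, without molecular identifiers. A level is given as pooled CPM, the reads of a gene summed over all cells of a class and scaled to the total reads of those cells, with an exact Poisson 95% interval. Such intervals cover counting error only and are too narrow, because reads copied from 1 molecule are not independent. With 1 library per method no test was possible, and no p-value is given.

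Cells were clustered without the members and without a list of 69 other homing and adhesion genes, and clusters were named from marker genes. The classes held, in TAS-Seq and BD WTA, 236 and 203 follicular-like B cells, 52 and 41 marginal zone-like B cells and 122 and 125 other B-like cells. T-like cells comprised 114 and 98 Cd8 naive-like, 123 and 141 other naive-like and 41 and 46 memory-like cells. The remaining cells were 19 and 27 NK-like, 15 and 16 monocyte- or macrophage-like and 10 and 11 neutrophil-like. The monocyte- or macrophage-like class also had 331 and 212 CPM of Flt3, a dendritic cell gene, and none of its 10 leading genes was a listed marker of its name. It had 338.0 and 120.2 CPM of Cd4 and 149.5 and 378.9 CPM of Cd8a, with 4.985 and 0.0 CPM of Cd3e. The naming rule held no dendritic cell name, so dendritic cells in this class could not be named apart.

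**Figure D1:**
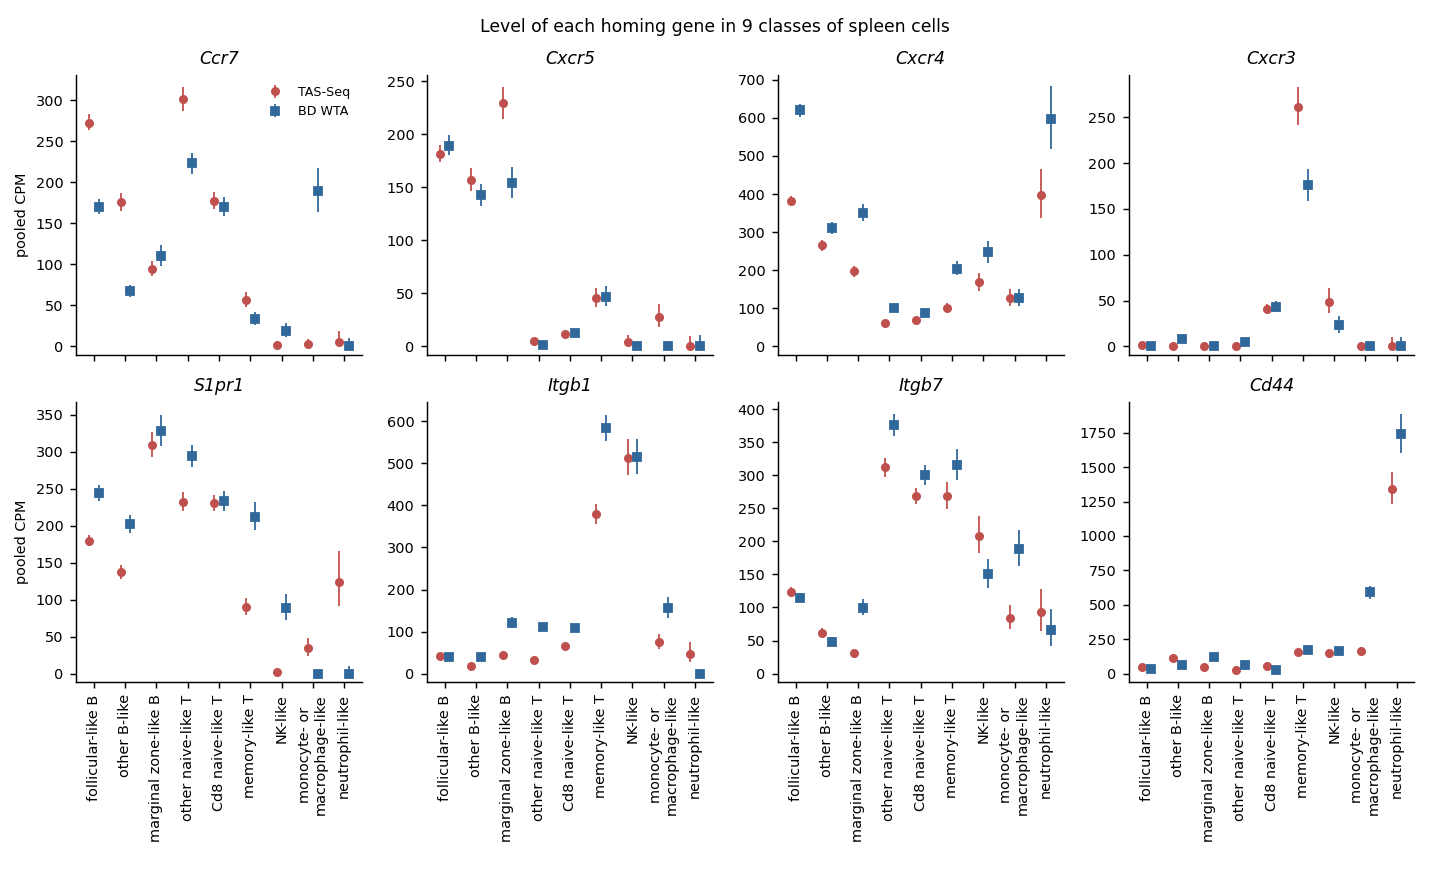
Pooled CPM of each member (vertical axis, linear) in 9 classes (horizontal axis) for TAS-Seq and BD WTA, with exact Poisson 95% intervals. Cxcr5 is high in the B-like classes, Cxcr3 in memory-like T cells, Itgb1 in memory-like T and NK-like cells, and Cd44 in neutrophil-like cells.

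Between B-like and T-like cells, 5 of 8 members differed at least 2-fold in the same direction in both libraries, against 15.3% of the 6748 genes tested. Cxcr5 and Cxcr4 were higher in B-like cells, and Cxcr3, Itgb1 and Itgb7 in T-like cells. Over all tested genes, 9.71% were higher in B-like and 5.62% in T-like cells. Ccr7, S1pr1 and Cd44 were within 2-fold.

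Cxcr5, the receptor that brings B cells to the follicle, was at 185.0 CPM in B-like against 14.69 in T-like cells in TAS-Seq. In BD WTA it was at 168.6 against 14.4 CPM. The log2 ratio was 3.65 (95% interval 3.46 to 3.85) in TAS-Seq and 3.55 (3.33 to 3.78) in BD WTA, so the B-like level was over 10 times the T-like level in either library. Among B-like classes, TAS-Seq gave the highest Cxcr5 level in marginal zone-like cells (229.2 CPM, 214.8 to 244.3), and BD WTA in follicular-like cells (189.5 CPM, 180.3 to 199.1). The order of these classes therefore differed between the libraries. Thinned to 20000 reads per cell, a Cxcr5 read was found in 63.5% of marginal zone-like and 44.5% of follicular-like TAS-Seq cells, and in 43.9% and 26.9% of BD WTA cells. Of other naive-like T cells at that depth, 6.84% and 0.806% had one.

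Cxcr4, the CXCL12 receptor that holds B-cell precursors in marrow and serves mature cells too, was at 314.6 CPM in B-like and 71.61 in T-like cells in TAS-Seq. In BD WTA the values were 475.3 and 114.8 CPM. The log2 ratios were 2.14 (2.04 to 2.23) and 2.05 (1.97 to 2.13), nearly alike in the libraries although BD WTA gave the higher level in both kinds of cell. Follicular-like B cells led the B-like classes, at 382.3 CPM (370.8 to 394.0) in TAS-Seq and 619.8 (603.0 to 636.9) in BD WTA. Neutrophil-like cells were close to them, at 396.7 (335.8 to 465.5) and 595.9 CPM (518.0 to 682.2), and the intervals overlapped. Naive-like T cells were lowest of the 9 classes, between 61.69 and 69.41 CPM in TAS-Seq and between 86.42 and 101.6 in BD WTA.

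Itgb7, the integrin beta chain that pairs with the alpha 4 and alpha E chains in gut homing, was at 285.2 CPM in T-like against 89.07 in B-like cells in TAS-Seq. In BD WTA it was at 335.5 against 91.14 CPM. The log2 ratios of B-like over T-like cells were -1.68 (-1.76 to -1.60) and -1.88 (-1.97 to -1.79). All 3 T-like classes were above all 3 B-like classes in both libraries, with the T-like classes between 268.4 and 312.1 CPM in TAS-Seq and between 300.8 and 376.5 in BD WTA.

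Itgb1, the shared beta chain of the collagen, laminin and fibronectin receptors, was at 103.1 CPM in T-like against 36.54 in B-like cells in TAS-Seq, a log2 ratio of -1.50 (-1.62 to -1.37). In BD WTA it was at 197.9 against 52.73 CPM, a log2 ratio of -1.91 (-2.02 to -1.80). Cxcr3 had 17 reads in the 410 B-like cells of TAS-Seq and 40 in the 369 of BD WTA, all 40 in 1 cell. T-like cells were at 60.83 and 51.87 CPM of Cxcr3, with log2 ratios of -6.20 (-6.98 to -5.51) and -4.41 (-4.91 to -3.95). Both T-cell differences were carried by a few classes, described below.

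Ccr7, the T-zone receptor, did not part B-like from T-like cells: it was at 211.9 against 205.5 CPM in TAS-Seq and at 127.4 against 167.2 in BD WTA, log2 ratios of 0.04 (-0.02 to 0.11), which turned to -0.08 with TMM scaling, and -0.39 (-0.48 to -0.30). S1pr1, the egress receptor, was at 194.7 against 208.6 CPM in TAS-Seq and at 244.8 against 254.6 in BD WTA, log2 ratios of -0.10 (-0.17 to -0.03) and -0.06 (-0.12 to 0.01). Within the T-like cells both genes separated further, as the memory comparison below shows. Cd44, the hyaluronan receptor raised on activated lymphocytes, was at 66.12 against 58.07 CPM in TAS-Seq and at 55.6 against 66.51 in BD WTA, so its direction differed between the libraries.

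**Figure D2:**
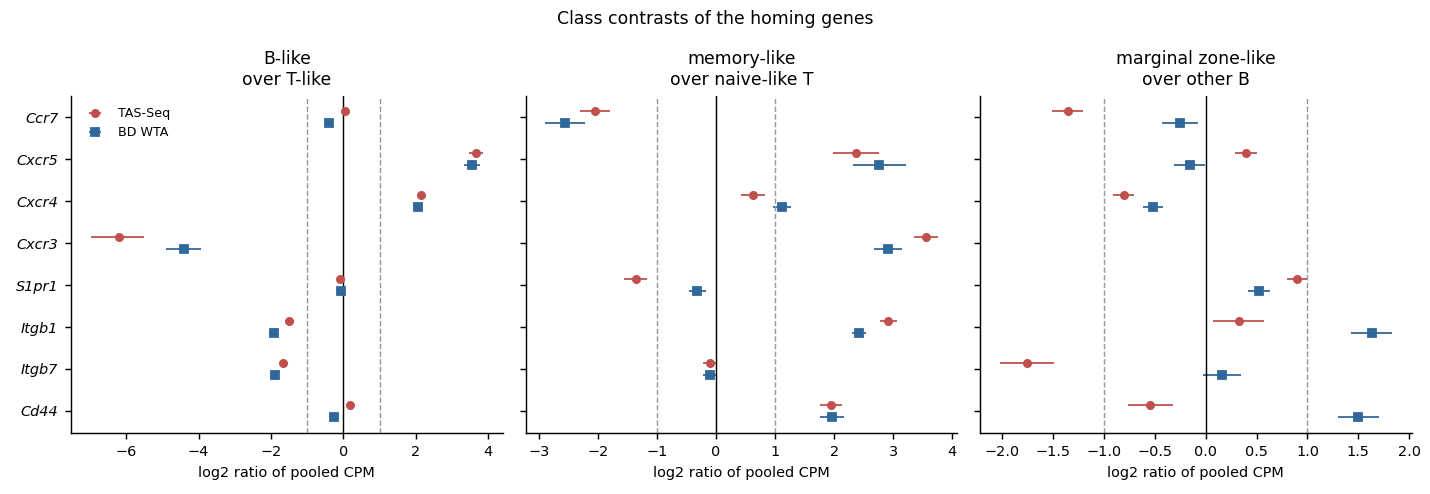
Log2 ratio of pooled CPM (horizontal axis) of the 8 members in 3 contrasts of classes, for TAS-Seq and BD WTA, with exact conditional 95% intervals. Cxcr5 and Cxcr4 lie above a log2 ratio of 1 for B-like over T-like cells, and Cxcr3, Itgb1 and Cd44 for memory-like over naive-like T cells, in both libraries.

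The start regions of 3 members higher in T-like and 1 member higher in B-like cells are shown from RefSeq, build GRCm38.p6, so that the groups can be set side by side. RefSeq entries were matched for 5 of 8 members. Each window holds 250 bases before and 50 after the gene's start, on the gene's strand, and capitals mark CACCC or its reverse complement GGGTG, letters that KLF factors such as KLF2 can bind. The windows lie at chr15:102231886-102232185 (Itgb7, minus strand), chr8:128685404-128685703 (Itgb1, plus strand), chrX:101734098-101734397 (Cxcr3, minus strand) and chr1:128592250-128592549 (Cxcr4, minus strand).
Itgb7: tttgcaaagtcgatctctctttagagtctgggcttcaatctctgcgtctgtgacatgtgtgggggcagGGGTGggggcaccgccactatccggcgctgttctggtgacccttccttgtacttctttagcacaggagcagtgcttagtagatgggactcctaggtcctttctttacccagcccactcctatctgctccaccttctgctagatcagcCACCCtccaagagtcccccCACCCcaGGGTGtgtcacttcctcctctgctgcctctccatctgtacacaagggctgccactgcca
Itgb1: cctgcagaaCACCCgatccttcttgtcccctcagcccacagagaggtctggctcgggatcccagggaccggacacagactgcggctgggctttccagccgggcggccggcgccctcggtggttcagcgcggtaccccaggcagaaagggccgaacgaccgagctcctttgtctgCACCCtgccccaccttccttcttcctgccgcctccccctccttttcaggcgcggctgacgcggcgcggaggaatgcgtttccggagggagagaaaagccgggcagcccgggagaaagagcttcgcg
Cxcr3: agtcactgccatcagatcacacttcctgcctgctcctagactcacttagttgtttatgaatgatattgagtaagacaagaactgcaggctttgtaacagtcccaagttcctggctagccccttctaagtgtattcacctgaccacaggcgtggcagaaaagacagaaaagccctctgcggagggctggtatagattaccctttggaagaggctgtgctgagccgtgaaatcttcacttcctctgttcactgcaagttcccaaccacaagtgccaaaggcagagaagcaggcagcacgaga
Cxcr4: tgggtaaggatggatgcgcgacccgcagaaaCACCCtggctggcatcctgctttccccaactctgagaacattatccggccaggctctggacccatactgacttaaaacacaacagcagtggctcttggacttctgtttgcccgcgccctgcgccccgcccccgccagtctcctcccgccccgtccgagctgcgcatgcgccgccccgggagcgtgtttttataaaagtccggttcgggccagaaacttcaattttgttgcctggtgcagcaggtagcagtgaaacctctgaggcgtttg
CACCC on either strand stood 4 times in the Itgb7 window, 2 times in Itgb1, 1 time in Cxcr4 and 0 times in Cxcr3, and it was present in 57.5% of all 32851 windows. The RUNX letters TGTGGTT, held by 5.27% of windows on either strand, stood in the Cxcr3 window at position 261 counted from its first base. The GC box GGGCGG, held by 35.7% of windows and also bound by KLF and SP factors, stood 3 times in Cxcr4 and 1 time in Itgb1. The letters of the T-box (GGTGTGA), ETS (CCGGAAG) and kappaB motifs were in none of these 4 windows. These are matches of letters only, and no motif searched was held by all 3 windows of the members higher in T-like cells.

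Memory-like and naive-like T cells were compared next. Of 8 members, 5 differed at least 2-fold in both libraries, against 9.6% of 6487 genes tested. Itgb1, Cxcr3, Cd44 and Cxcr5 were higher in memory-like cells (7.78% of all tested genes) and Ccr7 was higher in naive-like cells (1.82%). The class names rest on other markers, since none of the members was used in clustering.

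Cxcr3, the receptor for interferon-induced chemokines, was at 261.7 CPM in memory-like against 22.4 in naive-like cells in TAS-Seq, a log2 ratio of 3.55 (3.35 to 3.75). In BD WTA it was at 175.8 against 23.47 CPM, a log2 ratio of 2.91 (2.67 to 3.14). At 20000 reads per cell it was read in 46.3% of memory-like TAS-Seq cells (19 of 41) and 32.6% of BD WTA cells (14 of 43). B-like cells served as background, with 2.52% and 0.299% of cells having a read at the same depth. Among naive-like cells, Cxcr3 lay in the Cd8 class, at 40.8 CPM (36.25 to 45.77) and 43.01 CPM (37.41 to 49.2). Few cells carried it: before thinning, 21 of 114 and 8 of 98 had a read, and 1 cell held 19.2% and 21.2% of the reads. The other naive-like class had 2 reads in TAS-Seq and 28 in BD WTA, or 0.3362 and 5.286 CPM. Naive-like cells split by their reads of Cd4 or Cd8 were at 39.35 and 37.92 CPM of Cxcr3 where Cd8 was read, and had 2 reads (0.6945 CPM) and 39 reads (15.05 CPM) where Cd4 was read.

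Itgb1 was at 379.2 CPM in memory-like against 50.22 in naive-like cells in TAS-Seq, and at 584.5 against 109.3 in BD WTA. The log2 ratios were 2.92 (2.77 to 3.06) and 2.42 (2.30 to 2.53). Itgb1 was uneven among memory-like cells: 1 cell held 35.7% of its reads in TAS-Seq and 21.4% in BD WTA. Memory-like cells with Cd4 reads (12 and 9 cells) were at 900.4 and 882.2 CPM of Itgb1, and those with Cd8 reads (4 and 8 cells) had 2 and 39 reads. The Itgb1 reads thus lay mainly outside the cells with Cd8. Of the memory-like cells, 15 in TAS-Seq and 14 in BD WTA fell in a finer cluster with Foxp3, described below. How many of the cells with Cd4 reads were among them was not counted. Cd44 was at 153.4 against 39.83 CPM in TAS-Seq and at 168.1 against 43.22 in BD WTA. Its log2 ratios of 1.95 (1.75 to 2.14) and 1.96 (1.76 to 2.16) were almost equal in the libraries.

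Ccr7 was at 56.74 CPM in memory-like against 234.0 in naive-like cells in TAS-Seq, and at 33.7 against 197.8 in BD WTA. The log2 ratios were -2.04 (-2.30 to -1.80) and -2.55 (-2.90 to -2.23). The Ccr7 reads that remained came from few cells, with 32.4% and 44.3% in 1 cell. S1pr1 was at 89.91 against 231.3 CPM in TAS-Seq, a log2 ratio of -1.36 (-1.57 to -1.17), and at 212.0 against 264.3 in BD WTA, a ratio of -0.32 (-0.46 to -0.18). S1pr1 was thus lower in memory-like cells in both libraries, but past 2-fold in TAS-Seq alone. With classes taken from the marker reads of each cell, the TAS-Seq log2 ratio of S1pr1 turned to 0.19.

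Cxcr4 was at 101.5 against 65.9 CPM in TAS-Seq and at 204.4 against 94.27 in BD WTA, higher in memory-like cells in both and past 2-fold in BD WTA alone, with log2 ratios of 0.62 (0.42 to 0.83) and 1.12 (0.96 to 1.28). Itgb7 was nearly level, at 268.9 against 288.3 CPM and 315.7 against 340.0, with log2 ratios of -0.10 (-0.22 to 0.02) and -0.11 (-0.22 to 0.01). The beta 7 chain therefore separated T-like from B-like cells without separating the T-like states. Itgb1 separated the T-like states, but its naive-like T classes were not all above the B-like classes. In TAS-Seq other naive-like T cells were at 31.1 CPM of Itgb1, against 42.76 in follicular-like and 43.57 in marginal zone-like B cells. In BD WTA the naive-like T classes were at 109.9 and 108.7 CPM, against 120.5 in marginal zone-like B cells.

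Cxcr5, which also marks follicular helper T cells, was at 45.55 CPM in memory-like against 8.791 in naive-like cells in TAS-Seq, and at 46.93 against 6.943 in BD WTA. The log2 ratios were 2.37 (1.99 to 2.76) and 2.76 (2.31 to 3.21). In BD WTA 1 cell held 63.6% of the memory-like reads (70 of 110), and it also had 293 reads of the B-cell gene Cd79a and 94 of the T-cell gene Cd3e. Without that cell the level was 18.13 CPM. When cells with at least 5 reads of both genes were left out, the log2 ratios were 2.50 and 1.36, and Cxcr5 no longer reached the level of 20 CPM required for a call in BD WTA. With coarser or finer clusters the direction turned, to log2 ratios of -3.13 and -1.42 at resolution 0.5 and of -2.58 and -0.55 at resolution 2.

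Members were also counted together in single memory-like cells, at 5 or more reads each. Cxcr3 and Itgb1 were both present in 10 of 41 TAS-Seq and 7 of 46 BD WTA cells, while 8 and 5 cells had Cxcr3 without Itgb1. A further 8 and 15 cells had Itgb1 without Cxcr3, and 15 and 19 had neither. Whether the 2 genes met more often than their own frequencies give was not tested. Cxcr3 and Ccr7 were both present in 3 and 1 cells, but Ccr7 was rare at this level, with 2 and 2 further cells having it without Cxcr3. Finer clusters (resolution 2) split the memory-like class.

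One finer cluster was led by Id2, Il2rb, Ccl5 and Cxcr6 and held 14 TAS-Seq and 16 BD WTA cells. Ccr7 had 1 and 0 reads there, Cxcr5 1 and 0, and S1pr1 3 and 0, where 3 reads correspond to 4.44 and 4.37 CPM. Cxcr3 was at 423.2 CPM (375.5 to 475.1) and 464.8 (415.2 to 518.8) in these cells. Itgb1 was at 251.5 and 376.0 CPM, and Itgb7 at 281.1 and 161.8. These cells combined high Cxcr3 and Cxcr6 with reads of the receptors for the T-cell zone and for egress at or below 3 in both libraries.

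A second finer cluster was led by Maf, Izumo1r and Ikzf2 and had Foxp3, the regulatory T-cell factor, at 524.0 and 380.0 CPM. The naming rule, which held no regulatory T-cell name, gave it neither the memory-like nor the naive-like name. Of 6 regulatory T-cell markers, only 2 were raised in TAS-Seq. It held 15 TAS-Seq cells, all from the memory-like class. Of its 26 BD WTA cells, 14 came from the memory-like class and 12 from the other naive-like class. Itgb1 was at 930.6 CPM (865.3 to 999.6) and 915.2 (854.9 to 978.7), the highest level in any T-like cluster. Itgb7 was at 351.0 and 566.2 CPM. Other members differed between the libraries: S1pr1 was at 43.26 CPM in TAS-Seq and 289.0 in BD WTA, Cxcr4 at 93.93 and 385.3, and Cxcr3 at 302.8 and 25.69. In TAS-Seq 63.7% of those Cxcr3 reads came from 1 cell. Part of this cluster's BD WTA cells came from another class, and the part this played was not tested.

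A cluster led by Trgc2 and Trdc, constant segments of the gamma delta T-cell receptor, held 10 and 13 cells. S1pr1 was at 253.6 and 405.1 CPM and Cxcr3 at 73.21 and 60.16. Ccr7 was at 89.29 and 89.58 CPM, but in TAS-Seq 92.0% of its reads came from 1 cell. Unlike the Cxcr6 cluster, these cells had S1pr1 in both libraries.

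**Figure D3:**
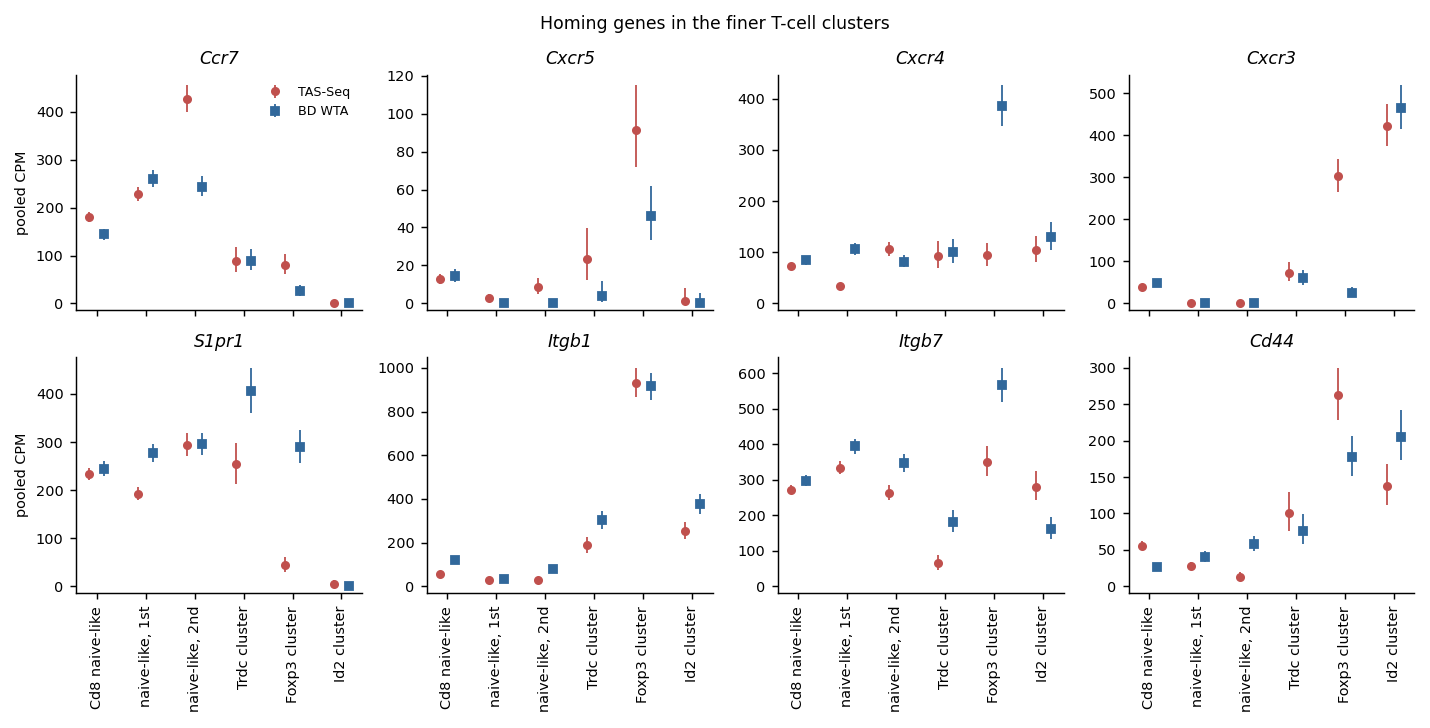
Pooled CPM of each member (vertical axis, linear) in the T-cell clusters of the finer clustering (horizontal axis), for TAS-Seq and BD WTA, with exact Poisson 95% intervals. Ccr7 and S1pr1 are near 0 in the cluster led by Id2 and Cxcr6, which has the most Cxcr3 in both libraries, and Itgb1 is highest in the cluster with Foxp3.

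Marginal zone-like B cells, which sit beside the blood sinus of the spleen, were compared with the other B-like cells. None of the 7 members tested was at least 2-fold apart in both libraries, against 6.07% of 6618 genes (2.92% higher and 3.16% lower in marginal zone-like cells). Cxcr3 was too low to be tested. S1pr1 was higher in marginal zone-like cells in both libraries, at 309.1 against 165.8 CPM and 327.9 against 227.8, log2 ratios of 0.90 (0.80 to 1.00) and 0.53 (0.42 to 0.63), but with classes taken from the marker reads of each cell the BD WTA value turned to -0.48. Cxcr4 was lower in both, at 196.8 against 344.3 CPM and 350.3 against 500.9, log2 ratios of -0.81 (-0.92 to -0.70) and -0.52 (-0.62 to -0.42). Ccr7 was also lower, at 94.39 against 241.5 CPM in TAS-Seq and 110.0 against 131.0 in BD WTA, past 2-fold in TAS-Seq alone.

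For the other members the libraries gave differing pictures of these B cells. Itgb7 was at 30.74 against 103.8 CPM in TAS-Seq and 99.92 against 89.35 in BD WTA. The BD WTA log2 ratio of Itgb7, 0.16, turned to -0.42 at resolution 0.5 and to -0.84 with classes from marker reads. Without the cell with most Itgb7 reads on each side it was -0.17. Itgb1 was at 43.57 against 34.77 and 120.5 against 38.89 CPM, higher in marginal zone-like cells in both but past 2-fold in BD WTA alone. Cd44 was at 48.41 against 70.59 and 120.1 against 42.43 CPM, opposite in direction. In BD WTA 51.7% of the marginal zone-like Cd44 reads came from 1 cell, and the level without it was 60.76 CPM. In TAS-Seq 33.3% of the Cd44 reads of the class of other B-like cells came from 1 cell. A finer cluster of B-like cells stood apart in Cxcr4. It held 34 TAS-Seq and 26 BD WTA cells, of which 3 and 5 came from T-like classes, and had 282.1 and 527.3 CPM of Pcna, a DNA replication gene. Its Cxcr4 level was 52.97 CPM (44.75 to 62.26) in TAS-Seq and 86.66 (75.66 to 98.81) in BD WTA. The marginal zone-like cluster at this resolution was at 194.4 and 315.2 CPM, and the other 4 B-like clusters were at 367.6 to 417.7 and 476.1 to 720.8 CPM, so this cluster was lowest of the B-like clusters in both libraries. Marginal zone-like cells had more reads per cell than other B-like cells, with medians of 77377 and 61539 against 43822 and 37565 in follicular-like cells and 32689 and 25965 in the class of other B-like cells.

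NK-like cells had little Ccr7, Cxcr5 and S1pr1 in TAS-Seq, with 2, 5 and 2 reads. In BD WTA Ccr7 had 22 reads, all in 1 cell, Cxcr5 had 0, and S1pr1 had 105 (89.12 CPM). Itgb1 was at 512.9 CPM (471.4 to 557.2) and 515.2 (475.0 to 557.9) in NK-like cells, read in 84.2% and 79.2% of cells at 20000 reads. It was the most widely read member in this class. Cxcr3 was at 48.37 and 22.92 CPM there, each with over 50% of its reads in 1 cell.

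Cd44 was highest in neutrophil-like cells, at 1343 CPM (1229 to 1466) and 1739 (1604 to 1883), and read in 9 of 10 and 10 of 10 cells thinned to 20000 reads. Monocyte- or macrophage-like cells followed, at 166.5 CPM (142.2 to 193.7) in TAS-Seq, where the intervals of memory-like T and NK-like cells overlapped theirs, and at 590.1 (544.1 to 638.9) in BD WTA. Both myeloid classes had 0 reads of Cxcr3. The upper ends of the 95% intervals were 3.677 and 3.574 CPM in the monocyte- or macrophage-like class and 9.756 and 10.47 CPM in the neutrophil-like class. Of Ccr7, the monocyte- or macrophage-like class had 3 reads in TAS-Seq and 195 in BD WTA. All 195 came from 1 cell, which also had 140 reads of Fscn1, a gene of mature dendritic cells.

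Between the methods, over all cells, 0 of 8 members were at least 2-fold apart, against 13.3% of 7598 genes tested (8.54% higher in TAS-Seq and 4.75% in BD WTA, and 39.7% in either direction when no filter on low levels was set). Ccr7 was higher in TAS-Seq, at 195.9 against 139.8 CPM, a log2 ratio of 0.49 (0.43 to 0.54). Itgb1 was lower in TAS-Seq, at 78.04 against 130.8 CPM, a ratio of -0.75 (-0.81 to -0.68), as was Cxcr4, at 208.2 against 312.8 CPM, a ratio of -0.59 (-0.63 to -0.54). These were the widest differences among the members. The other 5 lay between -0.32 (Cd44) and 0.21 (Cxcr3). The direction turned in B-like cells alone for Cxcr3, to -1.56 with all BD WTA reads in 1 cell, and for Cd44, to 0.25.

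The share of cells with a read of a member was compared at equal depth. At 20000 reads per cell (707 and 645 cells), Ccr7 was read in 44.6% of TAS-Seq cells (40.8 to 48.3, exact binomial 95% interval) and 25.7% of BD WTA cells (22.4 to 29.3). Cxcr5 was read in 29.4% (26.1 to 32.9) and 15.5% (12.8 to 18.5). Cxcr4 was read in 55.7% and 47.4% and Itgb7 in 40.9% and 30.1%. For these 4 of 8 members the intervals lay apart with TAS-Seq higher, against 58.2% of 7598 genes. None had intervals apart with BD WTA higher, against 1.26% of genes. The shares of S1pr1, Cd44, Cxcr3 and Itgb1 were 43.0% and 35.8%, 19.7% and 14.6%, 6.65% and 4.5%, and 17.0% and 17.2%. Before thinning, Ccr7 was read in 52.0% and 25.1% of cells and Cxcr5 in 33.9% and 15.7%.

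The reads per cell also differed between the methods. Among cells with a read of a member, the median was 8 to 14 reads in TAS-Seq and 17 to 25 in BD WTA, and 15.2% to 30.5% of them had 1 read in TAS-Seq against 4.0% to 9.26% in BD WTA. When 5 reads were required, Ccr7 alone kept intervals apart, at 29.0% and 17.7%. Reads of the B-cell gene Cd79a in T cells were more frequent in TAS-Seq, where it was read in 47.9% of other naive-like T cells, against 10.5% in BD WTA at 20000 reads. The part of such reads in the members' shares was not tested.

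**Figure D4:**
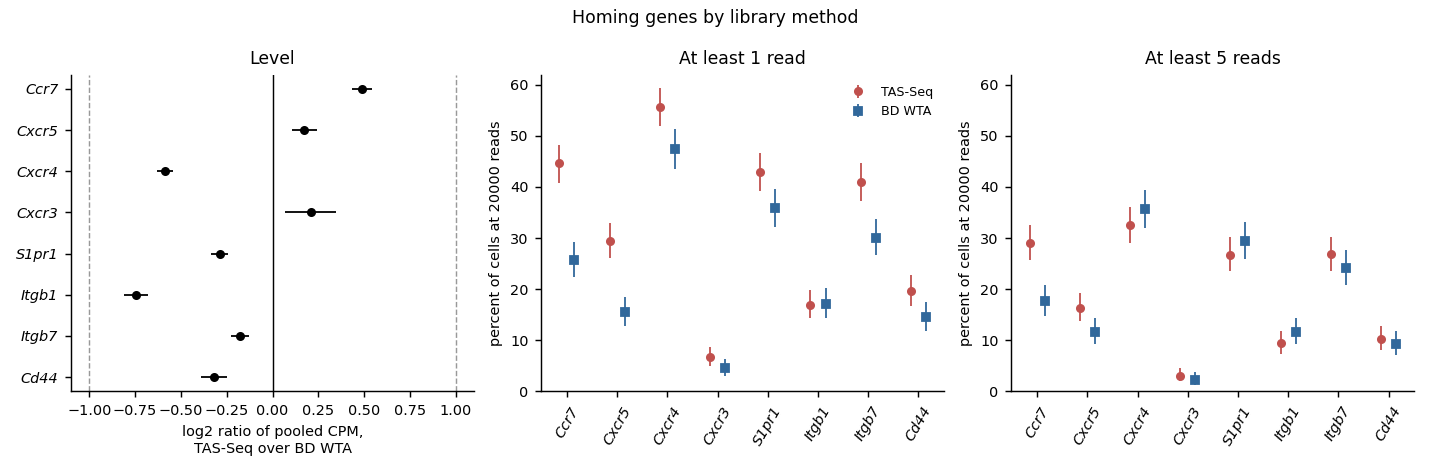
Left, log2 ratio of pooled CPM of TAS-Seq over BD WTA for each member with exact 95% intervals. Middle and right, percent of cells thinned to 20000 reads with at least 1 and at least 5 reads of each member, with exact binomial 95% intervals, where Ccr7 keeps the widest gap (44.6% and 25.7% for 1 read).

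The members were set beside the list of 69 further genes. It held chemokine receptors, sphingosine and oxysterol receptors, selectin genes, integrin chains, ligands, and regulators and signalling genes. Of the list, 67 genes were in the deposited matrices. Between B-like and T-like cells, 32 could be tested and 3 were higher in B-like and 9 in T-like cells (9.71% and 5.62% of all genes). Ccr6, the receptor for CCL20, was at 44.39 against 6.93 CPM in TAS-Seq and 73.58 against 8.194 in BD WTA. Selplg, the P-selectin ligand, was at 42.34 against 360.4 CPM and 53.03 against 405.4. The median log2 ratio of the list was -0.06 and -0.31, beside 0.09 and -0.02 for all genes and -0.03 and -0.33 for the members.

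Between memory-like and naive-like T cells, 35 list genes were tested, 10 were higher in memory-like cells and 1, the alpha E chain gene Itgae, was higher in naive-like cells (7.78% and 1.82% of all genes). Ccr2, a receptor for inflammatory chemokines, was at 261.3 against 6.498 CPM in TAS-Seq and 275.6 against 26.99 in BD WTA. Rgs1, which dampens chemokine receptor signalling, was at 310.9 against 10.86 CPM and 356.2 against 16.04. The list's median log2 ratio was 0.63 and 0.45, beside 0.19 and 0.21 for all genes.

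Between marginal zone-like and other B-like cells, 5 of 32 list genes were higher in marginal zone-like cells and 2 were lower (2.92% and 3.16% of all genes), where none of the 7 members tested was called. Ackr3, an atypical CXCL12 receptor, was at 156.6 against 0.3661 CPM in TAS-Seq and 33.91 against 4.272 in BD WTA. S1pr3, another sphingosine receptor, was at 133.6 against 2.745 CPM and 73.95 against 15.39. The lower genes were S1pr4 and Selplg. Between the methods, 3 of 35 list genes (Icam2, Vcam1 and Fermt3) were at least 2-fold apart, against 13.3% of all genes.

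**Figure D5:**
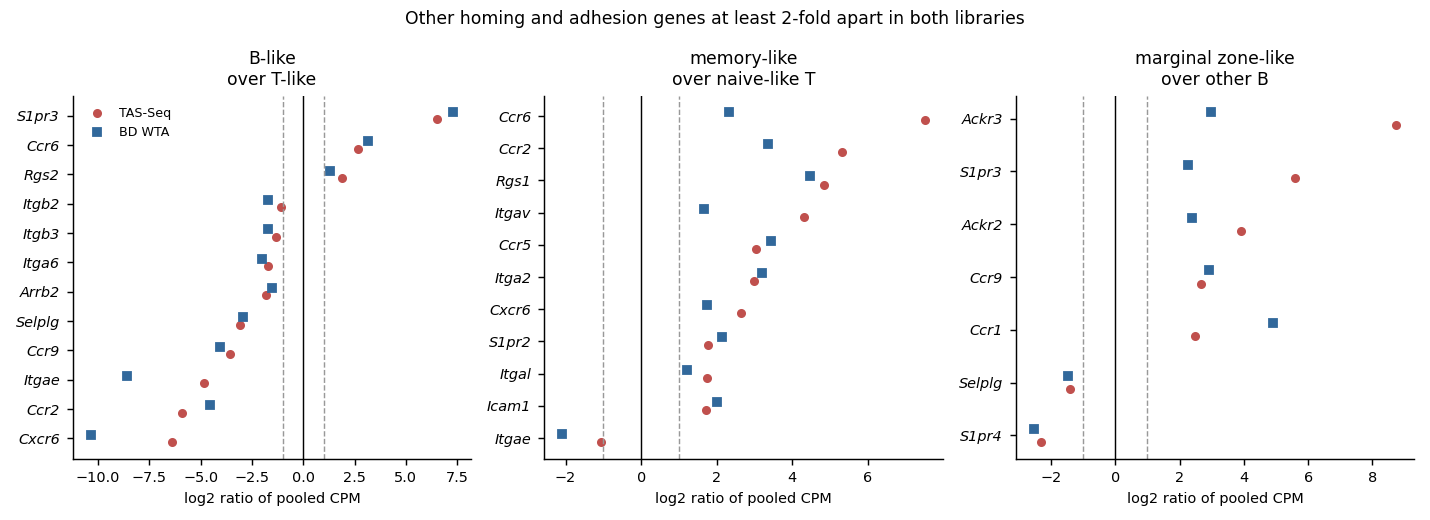
Log2 ratio of pooled CPM (horizontal axis) of the list genes at least 2-fold apart in both libraries (vertical axis), in 3 contrasts of classes, for TAS-Seq and BD WTA. Ackr3 and S1pr3 are higher in marginal zone-like B cells, and Ccr2 and Rgs1 in memory-like T cells.

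The genes whose level across classes was most like that of each member were ranked by Pearson's r of log2(CPM + 1), centred within each library, over 18 points, 9 classes in each of 2 libraries, among 9715 genes. The points share libraries, and each class holds its own base composition and depth, so r is a description. For Cxcr3 they were F2r (0.923), Cd160 (0.891) and Nkg7 (0.887), the latter 2 genes of cytotoxic cells. For Cxcr5 they were Ero1lb (0.913), A530040E14Rik (0.909) and Blnk (0.907), the B-cell receptor adaptor. For Itgb7 they were Il7r (0.898), Skap1 (0.878) and Tcf7 (0.855), all genes of T cells. For Ccr7 they were Fam8a1, Gnl2 and Aatf (0.911 to 0.923), for S1pr1 Ggps1, Poc5 and Banp (0.906 to 0.961), and for Cd44 Txn1, Gm7665 and S100a11 (0.912 to 0.942). Those of Cxcr4 were 1700034P13Rik, Lmbrd1 and Jund (0.871 to 0.901), and those of Itgb1 Spryd3, Epsti1 and H2-K1 (0.903 to 0.912). The levels of a member over the 9 classes in 1 library and in the other had r of 0.953 for Cxcr4, 0.906 for Cxcr3, 0.869 for Cxcr5, 0.851 for Cd44 and 0.766 for Itgb7. It was 0.574 for Itgb1, 0.562 for Ccr7 and 0.265 for S1pr1, whose levels differed in NK-like cells (1.825 and 89.12 CPM) and in both myeloid classes, where its TAS-Seq reads came almost wholly from 1 cell each. Itgb1 in neutrophil-like cells was at 47.6 CPM in TAS-Seq, all in 1 cell, and at 0.0 in BD WTA. Ccr7 in the monocyte- or macrophage-like class was at 2.991 CPM in TAS-Seq and 188.9 in BD WTA, the latter all in 1 cell. The part of such single cells in r was not tested.

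The genes lie on GRCm38 chromosomes 11 (Ccr7, 99144196 to 99155077), 9 (Cxcr5, 44511787 to 44561877), 1 (Cxcr4, 128588199 to 128592293), X (Cxcr3, 101731535 to 101734269), 3 (S1pr1, 115710433 to 115715072), 8 (Itgb1, 128685654 to 128733200), 15 (Itgb7, 102215995 to 102231944) and 2 (Cd44, 102811141 to 102901665), and all are protein-coding. Itgb1 is on the plus strand and the other 7 are on the minus strand. Of the 31-base words of a member's transcripts, at most 0.365% (S1pr1) also occurred in another gene.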

How the data were processed

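Spleen cells of pooled mice gave 1 TAS-Seq and 1 BD WTA library, grouped by the sample titles. The authors deposited counts: raw reads tallied for every gene in every cell, not normalized and without molecular identifiers. The submitters' processing notes name cutadapt 2.10, Bowtie2 2.4.2 and R 3.6.3. The study's methods describe mapping to mouse transcript sequences on the forward strand and keeping barcodes above the inflection point of their ranked totals. Those methods describe fresh spleen cells and several libraries per method, whereas these cells were frozen and gave 1 library per method, and they may not describe how these matrices were made. Their step of background subtraction is not stated for these matrices, and mapping to transcripts can place reads on near copies of a gene.

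Cells with fewer than 500 genes or more than 25% mitochondrial reads were removed (4 TAS-Seq, 8 BD WTA). Cells of both libraries were clustered jointly with scanpy 1.11.5 and leidenalg 0.10.2 (log2(CPM + 1) scaled within each library, 2000 variable genes, 20 principal components, 15 neighbours, resolution 1), leaving out the members, the homing list, receptor variable segments and mitochondrial genes. A cluster was named when at least 3 listed markers were raised by a log2 difference of 1 and read in 50% of cells in both libraries. The clusters had been looked at before this rule was chosen. The members, marker lists and homing list were chosen with earlier results of these data known. Scrublet called 4 and 6 cells as doublets, which were kept.

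A gene was called between classes when its pooled CPM differed at least 2-fold in the same direction in both libraries, with at least 20 CPM in a class of both. A class with 0 reads was set to 3 reads. Intervals are exact (Poisson, binomial, conditional binomial, 95%). Shares of cells were taken after thinning to 20000 reads. Named genes were the members, list genes called in a contrast and the 3 genes most like each member. Other genes are named to describe a cluster, a marker or single cells. These, and the start regions printed, were chosen after their values were seen. The fold calls were tested on simulated pooled counts drawn independently. That simulation held no copied reads and no differences between cells, so it cannot show how these affect the calls. Alternatives were resolution 0.5 and 2, classes from marker reads, equal weight of cells, doublets removed, TMM factors from edgeR 4.0.16, a fold of 1.5, other depths and other filters. Leaving out the cell with most reads of a member, and cells with reads of both Cd79a and Cd3e, was added after seeing the data.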

Additional observations from a re-analysis of the deposited data

Results flagged for a closer look

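A member's effect went one way in TAS-Seq and the opposite way in BD WTA, with both 95% intervals clear of 0, in 3 cases, and these differences were not tested. Cd44 between B-like and T-like cells had log2 ratios of 0.19 in TAS-Seq and -0.26 in BD WTA. Cd44 between marginal zone-like and other B-like cells had log2 ratios of -0.54 and 1.501, and in BD WTA 51.7% of the marginal zone-like Cd44 reads came from 1 cell. In TAS-Seq 1 cell held 33.3% of the Cd44 reads of the class of other B-like cells, which enters both Cd44 contrasts. That class was at 115.6 CPM of Cd44 with this cell and 79.44 without it. Cxcr5 between marginal zone-like and other B-like cells had log2 ratios of 0.40 and -0.16, and the BD WTA value turned to 0.14 at resolution 2. Ccr7 between B-like and T-like cells (0.04 and -0.39) and Itgb7 between marginal zone-like and other B-like cells (-1.76 and 0.16) also differed in sign, with an interval that reached 0 in 1 library. The BD WTA value of Itgb7 turned negative in the alternatives given above for these B cells.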

How the results depend on the processing

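No paired analysis was possible because TAS-Seq and BD WTA gave a single library each, so nothing here was tested. Of 47 alternative values of the summary counts, 42 stayed within 1.5 times the reported count, and 5 did not. With classes from the marker reads of each cell, 1 member (Cxcr4) was called between marginal zone-like and other B-like cells (5.89% of all genes). With a fold of 1.5, 2 members (Cxcr4 and Itgb1) were called between the methods (33.8% of all genes). The members read in more TAS-Seq cells were 7 without thinning (82.7% of all genes), 1 (Ccr7) with at least 5 reads required (17.1%) and 2 (Ccr7 and Cxcr5) in T-like cells alone (33.6%). The 5 members called between B-like and T-like cells were the same 5 in each of the 9 alternatives run. Between memory-like and naive-like T cells, Ccr7, Cxcr3, Itgb1 and Cd44 were called in each alternative, while Cxcr5 turned to log2 ratios of -3.13 and -1.42 at resolution 0.5 and of -2.58 and -0.55 at resolution 2, where the memory-like class held 14 and 16 cells and S1pr1 was called instead. At resolution 0.5, 14 and 16 memory-like cells were set against 121 and 110 naive-like cells, where resolution 1 had 237 and 239 naive-like cells. That alternative thus compares fewer cells on both sides. The cause of the turn at resolution 0.5 was not tested. Of the values of single members, 256 stayed within their interval, 172 moved further and 4 reversed a call. The sign changed in 4 of 160 values of called members, those of Cxcr5 above, and in 18 of 272 values of members not called. TMM factors moved the log2 ratios of all genes by -0.30 and -0.42 between memory-like and naive-like T cells, and by -0.12 and -0.11 between B-like and T-like cells, in TAS-Seq and BD WTA. The share of genes called between B-like and T-like cells was 16.4% of 10999 genes at 5 CPM and 19.5% of 18832 without a filter, and between the methods 18.9% of 12104 and 39.7% of 25185. Classes of 10 to 27 cells (NK-like and myeloid) rest on few cells, and often on 1 for a member.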
